A study of Homo sapiens with 4 samples.

Results

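The chaperonin CCT, also called TRiC, is the folding machine of the eukaryotic cytosol. Its subunits are encoded by 8 genes, TCP1, CCT2, CCT3, CCT4, CCT5, CCT6A, CCT7 and CCT8. These were followed in 22RV1 and PC3 prostate cancer cells with and without knockdown of DDX52. The genes were chosen by name, and each symbol was paired with 1 Ensembl identifier, so they are 8 of the 60671 genes listed. RNA was measured by RNA sequencing in 4 groups with 1 library each. 22RV1 and PC3 are established human prostate carcinoma lines, and each was transduced with a lentivirus carrying an shRNA against DDX52, here shDDX52, or a control sequence, here shCON. All 4 groups were kept under puromycin after transduction, so they share the vector and the selection. DDX52 was targeted by 1 hairpin sequence only, which limits these cells as a model of DDX52 loss. The purpose of the comparison was to see which transcripts differ when DDX52, a DEAD-box RNA helicase, is depleted in each line.

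A pair of stacked rings, each holding all the subunits once in a fixed order, encloses a cavity in which CCT folds newly made proteins at the cost of ATP. Actin and tubulin are its best-known clients, and many proteins built as a WD-repeat propeller, such as CDC20 and the G protein beta subunits, depend on it as well. Prefoldin hands unfolded chains to CCT. Because every subunit has its own place in the ring, the complex needs all of them. Several subunit genes are members of the hallmark list of MYC targets, and the study that made these libraries addressed c-Myc signaling.

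The subunits descend from a common ancestor and are most alike around the site that holds ATP. The coding stretch of 39 bases around the conserved ATP-site motif of chaperonins is given below from GENCODE 29 transcripts of GRCh38. It reads 5′ to 3′, with the 14 bases matched to the motif in capitals. The fixed letters of the motif were matched once, in the frame of the longest open reading frame, in 7 of the 8 subunits. CCT8 had 0 exact matches to these letters. Variants of the motif were not searched for, so CCT8 may still hold a form of it.
TCP1: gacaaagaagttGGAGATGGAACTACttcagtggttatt
CCT2: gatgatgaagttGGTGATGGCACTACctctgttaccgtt
CCT3: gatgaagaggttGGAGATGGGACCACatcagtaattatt
CCT4: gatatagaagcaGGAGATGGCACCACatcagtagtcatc
CCT5: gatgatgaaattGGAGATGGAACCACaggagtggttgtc
CCT6A: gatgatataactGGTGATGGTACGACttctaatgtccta
CCT7: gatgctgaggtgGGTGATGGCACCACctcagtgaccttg
Over these 39 bases, pairs of the 7 subunits were identical at 53.8% to 79.5% of the bases. The fixed letters of the motif are the same in all 7 because the stretches were chosen by them. No other stretch was compared, so these values do not show where the subunits are most alike. Over whole transcripts, no 75-base word was shared with any other gene for CCT2, CCT3 and CCT7. For CCT6A and CCT8 the shared portion was 1.40% and 1.29% of the words, all with pseudogenes. TCP1 shared 14.8% of its words with ACAT2, which overlaps it by 558 bases on the opposite strand, and with the pseudogenes TCP1P1 and TCP1P3. CCT4 shared 8.55% with COMMD1 and an antisense transcript, and CCT5 shared 47.5% with the pseudogene CCT5P1 and an antisense transcript that was listed at no more than 0.14 TPM. Whether strand was used in the authors' counting is not given in the sources used here, so reads of TCP1 and ACAT2 cannot be told apart in the shared part. Of 14 pseudogenes of subunits, 10 were listed at 0 in every library, and the highest value among the rest was 2.93 TPM, for CCT6P1.

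Levels were deposited as TPM, a length-corrected share of each library that can be compared between genes but does not tell a smaller amount of RNA per cell from a larger amount of other RNA. With shDDX52, the targeted gene DDX52 stood at 24.6% of its control level in 22RV1, where it was 1.2 against 4.88 TPM, and at 22.5% in PC3, where it was 2.07 against 9.2 TPM. Of the line markers, PLAU was at least 745 TPM in PC3 and at most 0.2 TPM in 22RV1. VIM, a PC3 marker in the list, was only 12.6 TPM in PC3 shCON against 66.7 TPM in PC3 shDDX52, and TMPRSS2 was under 5 TPM throughout. Of markers of other cells, the highest values were 8.65 TPM for COL1A1 and 5.03 TPM for PECAM1, both in PC3 shCON. Each library had 13504 to 13738 genes at 1 TPM or more. The mitochondrial share was 9.81% and 13.0% of all TPM in 22RV1 and 8.10% and 10.3% in PC3, shCON first, and the nuclear rRNA share was 1.21% and 0.0872% in 22RV1 and 0.0923% and 3.13% in PC3. With 1 library a group, no difference here has a replicate check, no test was made and no error can be given. TPM keeps no read depth, so counting error is unknown too.

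CCT7 and CCT3 were the most abundant subunit mRNAs in all 4 libraries. CCT7, the eta subunit, was 541 TPM with shCON against 529 TPM with shDDX52 in 22RV1, and 372 TPM against 421 TPM in PC3. CCT3, the gamma subunit, was 489 and 450.3 TPM in 22RV1 and 538 and 481 TPM in PC3, here and below with shCON first. CCT7 led in 22RV1 and CCT3 led in PC3. CCT5, the epsilon subunit, in which inherited variants cause a sensory neuropathy, was 238 and 198 TPM in 22RV1 and 317 and 248 TPM in PC3. In PC3 it was the third most abundant subunit in both libraries.

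TCP1, the alpha subunit, from which the complex takes its older name, was 277 and 162 TPM in 22RV1 and 152 and 127 TPM in PC3. It stood at rank 3 of 8 in 22RV1 shCON and at rank 7 of 8 in PC3 shCON. CCT6A, the zeta subunit of most tissues, was 190.3 and 142 TPM in 22RV1 and 165 and 129 TPM in PC3. CCT2, the beta subunit, was 148 and 115 TPM in 22RV1 and 182 and 150.0 TPM in PC3. Each of these 3 genes was lower with shDDX52 in both lines.

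CCT4, the delta subunit, was 137 and 97.05 TPM in 22RV1 and 149 and 138 TPM in PC3. CCT8, the theta subunit, was 101 and 86.8 TPM in 22RV1, the lowest of the family there, and 167 and 148 TPM in PC3. CCT4 and CCT8 were among the least abundant subunits in 22RV1, and CCT8 stood at rank 5 in both PC3 libraries. Without replicates, no spread is at hand to say which neighbours in these orders differ. The order of the 8 subunits in PC3 shCON matched that in 22RV1 shCON at 0 of the 8 ranks, though many ranks were close. CCT7 stood at 1 in 22RV1 shCON and 2 in PC3 shCON, and CCT3 at 2 and 1. In the same order, CCT5 stood at 4 and 3, CCT6A at 5 and 6, and CCT4 at 7 and 8. TCP1, at 3 and 7, CCT8, at 8 and 5, and CCT2, at 6 and 4, lay farther apart.

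**Figure D1:**
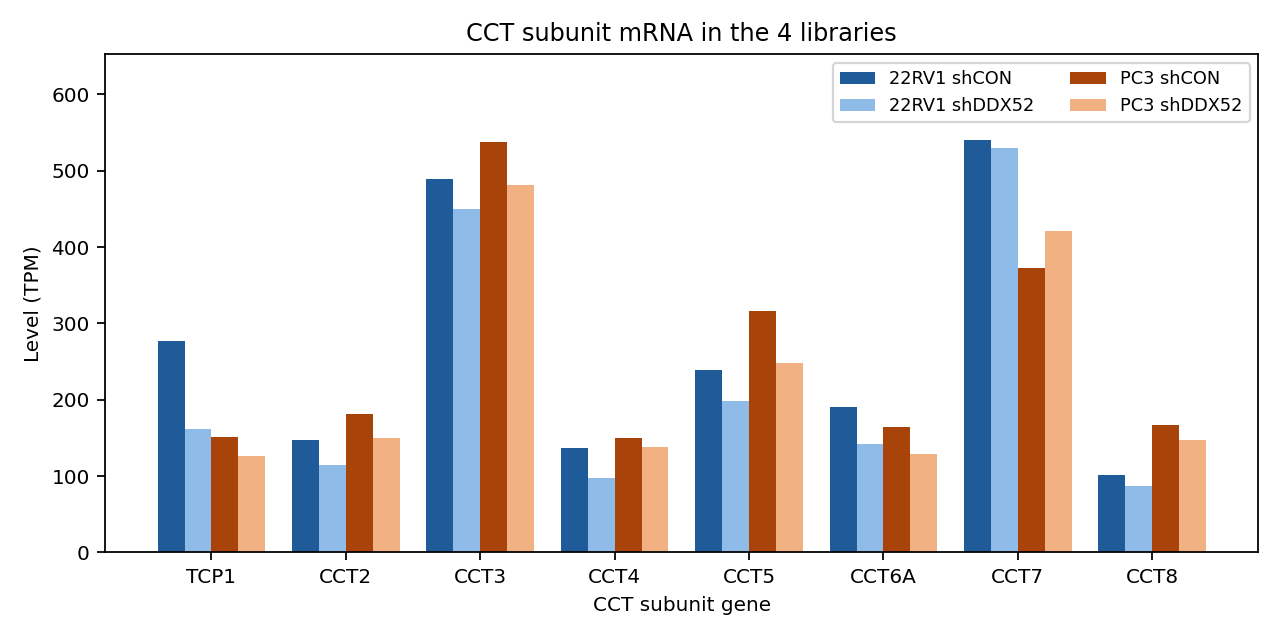
Level of each CCT subunit mRNA in TPM (vertical axis, linear, from 0) by gene, with a bar for each of the 4 libraries and no error bar because each group has 1 library. CCT3 and CCT7 stand above the other subunits in every library, from 372 to 541 TPM, and the TCP1 bar of 22RV1 shCON, 277 TPM, stands above its other bars.

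Although the ring holds every subunit once per turn, the mRNAs were far from equal. The most abundant subunit was 5.34 and 6.10 times the least abundant in 22RV1 and 3.60 and 3.80 times in PC3. An equal share would be 12.5% of the summed subunit TPM, and the observed shares ran from 4.77% for CCT8 to 25.5% for CCT7 in 22RV1 shCON and from 7.31% for CCT4 to 26.3% for CCT3 in PC3 shCON. CCT3 and CCT7 were above the equal share in every library. With shDDX52 the share of CCT7 was 29.8% against 25.5% in 22RV1 and 22.9% against 18.2% in PC3, whereas the share of TCP1 was 9.09% against 13.1% in 22RV1 and 6.88% against 7.43% in PC3. These are proportions within the family, so scaling of the whole library does not enter them. They were not centred on transcript length and GC content, as is described below for the log2 ratios. They describe mRNA and give no measure of the proteins.

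**Figure D2:**
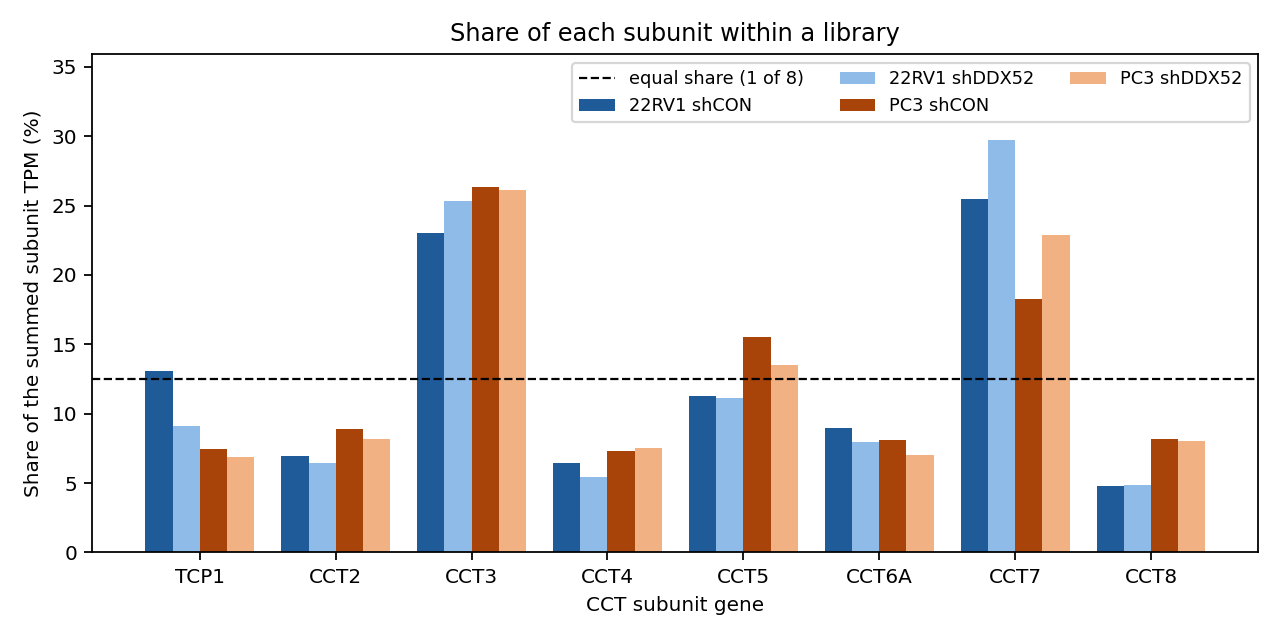
Share of each subunit in the summed TPM of the 8 subunits (vertical axis, percent, from 0) in each of the 4 libraries, with a dashed line at the equal share of 12.5%. CCT3 and CCT7 lie above the line in all libraries, CCT2, CCT4, CCT6A and CCT8 lie below it in all libraries, and the share of CCT7 is larger with shDDX52 in both lines.

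In control cells, the lines had nearly the same total but a different make-up. The 8 subunits summed to 2121 TPM in 22RV1 shCON and 2041 TPM in PC3 shCON. On the log2((TPM + 1) / (TPM + 1)) scale, PC3 shCON over 22RV1 shCON, the values ran from −0.87 for TCP1 and −0.54 for CCT7 to 0.41 for CCT5 and 0.72 for CCT8. The median of the 8 was 0.13 against −0.07 over all 15727 genes tested. At least 20% lower in PC3 were 2 subunits, TCP1 and CCT7, where 40.9% of all genes were, and at least 25% higher, the same step on the log2 scale, were 2, CCT5 and CCT8, where 36.9% were. The lines were deposited in separate tables, and whether these were normalised together is not given in the sources used here.

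In 22RV1 cells, all 8 subunits were lower with shDDX52. Changes are given as log2((TPM shDDX52 + 1) / (TPM shCON + 1)), here the log2 ratio, for every gene that reached 1 TPM in 1 of the libraries compared. TCP1 had the lowest log2 ratio, −0.77, which is 0.585 of control, and 4.65% of the 14438 genes tested had a lower value. CCT4, at −0.49, and CCT6A, at −0.42, came next. CCT2 was at −0.36, CCT5 at −0.27, CCT8 at −0.22, CCT3 at −0.12 and CCT7 at −0.03. The subunits that were most abundant, CCT7 and CCT3, had the smallest differences.

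The median log2 ratio of the subunits in 22RV1 was −0.31, against −0.08 over all genes tested and −0.02 over the 1852 genes that reached 80 TPM, a level that every subunit reached. Of all genes, 58.8% were lower by any amount, and of those with at least 80 TPM, 52.2% were. At least 20% lower were 4 of the 8 subunits (TCP1, CCT2, CCT4 and CCT6A), against 22.6% of all genes and 11.5% of the more abundant ones. The count was 3, without CCT2, under 3 of 4 other scalings, and 1, TCP1, after the centring on length and GC content described below. At least 2-fold lower were 0 subunits, against 2.86% of all genes. The summed TPM of the family was 1780 with shDDX52 against 2121 with shCON, a log2 ratio of −0.25, and without TCP1 it was −0.19. CCT7 was the only subunit to change sign under another scaling of the library, being above 0 after centring on the median of all genes, under upper-quartile scaling, and when mitochondrial genes were left out with the 20 highest genes.

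Length and base composition of transcripts moved with this result. Genes with transcripts of similar length and GC content to TCP1, CCT2, CCT4, CCT5, CCT6A and CCT8, whose GC content was 43.1% to 45.9%, had median log2 ratios between −0.25 and −0.21 in 22RV1. CCT3 and CCT7 had a GC content of 51.2% and 51.3%, and genes like them had a median of −0.10. Centred on such genes, TCP1 was at −0.56, CCT4 at −0.28, CCT6A at −0.21 and CCT2 at −0.11, while CCT5 (−0.03), CCT3 (−0.02), CCT8 (0.0090) and CCT7 (0.07) were close to 0. The median of the 8 was −0.07 after this centring and −0.31 before it, and 6 of the 8 subunits were below 0. TCP1 also shares its 3′ end with ACAT2, an enzyme gene of lipid metabolism, which was 82.4 and 63.1 TPM in 22RV1. The part of ACAT2 reads in the TCP1 value was not tested.

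In PC3 cells, 7 of the 8 subunits were lower with shDDX52 and CCT7 was higher. CCT6A and CCT5 had the lowest log2 ratios, both −0.35, followed by CCT2 at −0.27 and TCP1 at −0.26. CCT8 was at −0.18, CCT3 at −0.16 and CCT4 at −0.11. CCT7 was at 0.18, which is 1.13 times control, and 70.2% of the 14262 genes tested had a lower value. The log2 ratio of TCP1, which stood apart in 22RV1, was close to those of the other subunits here.

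The median log2 ratio of the subunits in PC3 was −0.22, against −0.04 over all genes tested and −0.12 over the 1848 genes that reached 80 TPM. Of all genes, 53.5% were lower by any amount, and of those that reached 80 TPM, 66.6% were. At least 20% lower were 2 of the 8 subunits, CCT5 and CCT6A, which is near the 22.5% of all genes and the 21% of the more abundant ones that were. The count was 0 under 3 of 4 other scalings, where both log2 ratios lay between −0.32 and −0.22. No subunit reached a 2-fold difference in PC3, where 3.44% of all genes were at least 2-fold lower. The summed TPM was 1842 with shDDX52 against 2041 with shCON, a log2 ratio of −0.15.

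The make-up of the libraries moved with the PC3 values. Nuclear protein-coding genes held 88.4% of the TPM in PC3 shCON and 81.3% in PC3 shDDX52, where rRNA and mitochondrial transcripts held more. When levels were expressed over nuclear protein-coding genes alone, the median log2 ratio of those tested was 0.08. With deposited TPM it was −0.04 over all genes tested. The subunit median was then −0.09, the summed log2 ratio was −0.02, CCT4 was at 0.02, and 6 of the 8 subunits were lower. CCT7 was at 0.31 on that scale. Relative to genes matched for length and GC content, the median was −0.11, with CCT5 at −0.43 and CCT7 at 0.23.

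**Figure D3:**
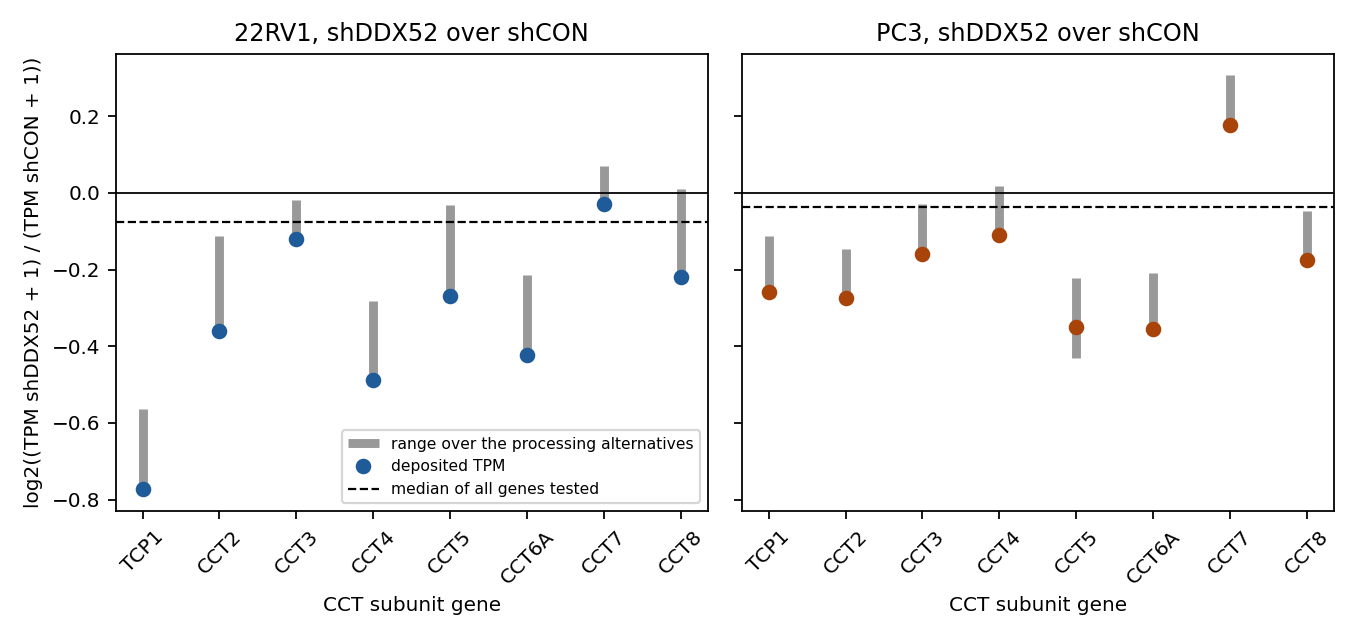
Log2 ratio of shDDX52 over shCON for each subunit (points) in 22RV1 (left) and PC3 (right), with a grey bar for the range over the 6 processing alternatives and a dashed line at the median of all genes tested. The ranges of CCT7 and CCT8 in 22RV1 and of CCT4 in PC3 cross 0, and TCP1 in 22RV1 stays at or below −0.56.

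**Figure D4:**
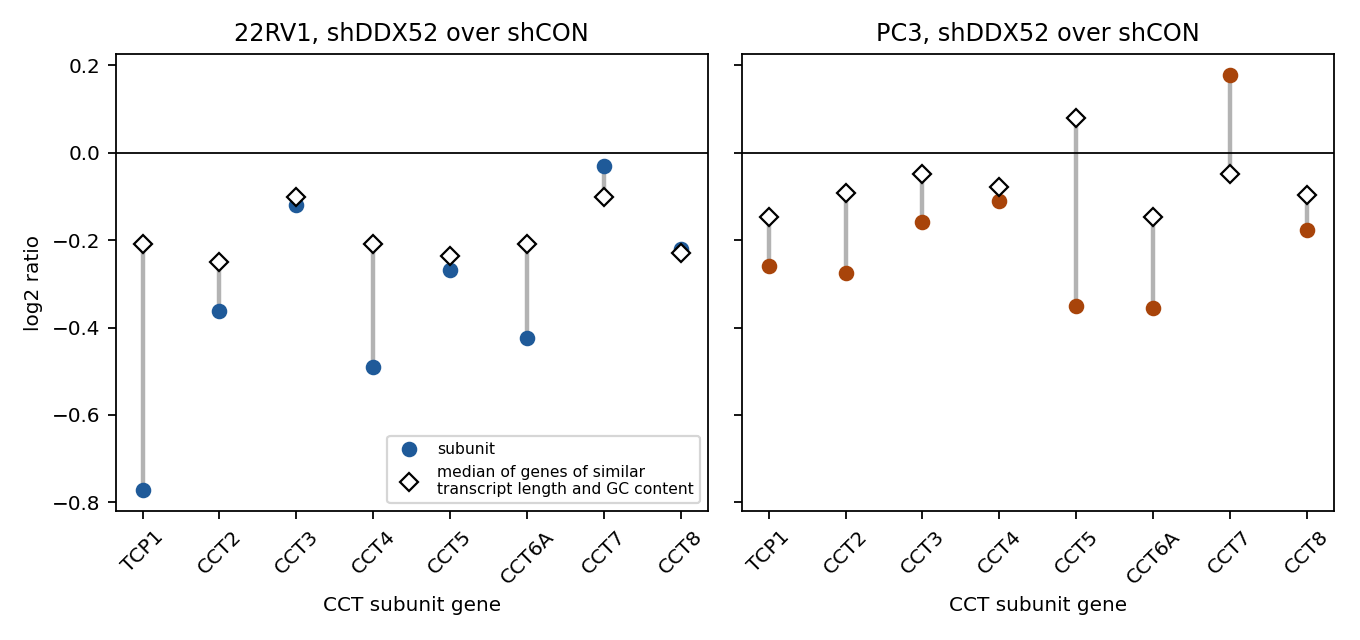
Log2 ratio of each subunit (filled points) and the median log2 ratio of genes matched for transcript length and GC content (open diamonds) in 22RV1 (left) and PC3 (right). In 22RV1 the diamonds lie between −0.25 and −0.10, and CCT3, CCT5 and CCT8 lie close to theirs while TCP1 lies 0.56 below.

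Set side by side, 7 of the 8 subunits were lower with shDDX52 in both lines, where 32.5% of the 12175 genes tested in both were, and 35.8% of those that reached 80 TPM in any library. CCT7 was the exception. Over nuclear protein-coding genes, CCT4 was also above 0 in PC3, at 0.02. After centring on length and GC content, CCT8 was above 0 in 22RV1, at 0.0090. With the deposited TPM, the log2 ratio was lower in 22RV1 than in PC3 for 6 subunits and lower in PC3 for 2, CCT3 and CCT5. Over nuclear protein-coding genes, CCT3 (−0.10 against −0.03) and CCT5 (−0.25 against −0.22) were lower in 22RV1 as well. Centred on length and GC content, CCT2 (−0.11, −0.18), CCT3 (−0.02, −0.11), CCT5 (−0.03, −0.43) and CCT8 (0.0090, −0.08) were lower in PC3, with 22RV1 given first. The widest gaps between lines with the deposited TPM were those of TCP1, −0.77 against −0.26, and CCT4, −0.49 against −0.11. With the same TPM, CCT2, CCT3, CCT5, CCT6A and CCT8 differed between lines by less than 0.1. Over nuclear protein-coding genes, CCT2 was at −0.34 in 22RV1 and −0.15 in PC3, CCT6A at −0.41 and −0.23, and CCT8 at −0.20 and −0.05. The centred values of CCT5 given above also lay farther apart than 0.1. None of these gaps was tested, since each rests on 4 single libraries.

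Promoter sequence was examined for TCP1, the subunit with the lowest log2 ratio in 22RV1, and CCT7, the subunit that was not lower in PC3. RefSeq promoter windows on GRCh38.p14, from 250 bases before to 50 after a start site, were at hand for 7 subunits in 9 windows, and CCT6A had none. The parts shown lie upstream of the RefSeq start and outside every exon of GENCODE 29. They read 5′ to 3′ on the strand of the gene, with matched motif letters in capitals. The TCP1 stretch is chr6:159789750-159789811 on the minus strand and the CCT7 stretch is chr2:73234058-73234235 on the plus strand. The capitals in TCP1 mark a CCAAT box read on the other strand, 154 bases before the RefSeq start. GENCODE 29 begins TCP1 at chr6:159789749, next to its stretch, and CCT7 at chr2:73233420, so the CCT7 stretch lies inside the annotated gene.
TCP1: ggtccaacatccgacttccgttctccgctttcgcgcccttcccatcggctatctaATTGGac
CCT7: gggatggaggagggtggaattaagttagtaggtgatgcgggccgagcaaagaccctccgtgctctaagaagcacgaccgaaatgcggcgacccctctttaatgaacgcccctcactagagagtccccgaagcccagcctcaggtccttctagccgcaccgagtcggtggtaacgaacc
The E-box bound by MYC and MAX, CACGTG, was in 0 of the 9 windows and in 7.26% of the 35116 windows of all genes. CCAAT on either strand was in 4 of the 9 windows, of TCP1, CCT2, CCT3 and CCT8, and in 34.6% of all windows. The heat shock element core GAANNTTC was in 2 of the 9 windows, of TCP1 and CCT2, and in 6.77% of all windows. In TCP1 it read GAAGGTTC, 231 bases before the RefSeq start and outside the stretch shown. The form TTCNNGAA was in 1 of the 9 windows, of CCT4 and past its start, and in 7.74% of all windows. The ETS letters CCGGAAG were in 1 of the 9 windows, of CCT2, and in 10.3% of all windows. The CCT7 window held 0 of these 5 motifs. GAANNTTC and TTCNNGAA are forms of the same element and can overlap, both strands were read, matches are letters and not binding sites, and no factor binding was measured.

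Genes that work with CCT were described from 10 lists of 82 genes in all. Of the 6 prefoldin subunits, which pass actin and tubulin chains to CCT, 5 were lower in 22RV1 and 6 in PC3. Lower by any amount were 58.8% of all genes in 22RV1 and 53.5% in PC3. The prefoldin median log2 ratios were −0.14 and −0.36. At least 20% lower were 0 of the 6 in 22RV1, where 22.6% of all genes were, and 4 of the 6 in PC3, where 22.5% were, and the PC3 count was 3 after centring on all genes, 2 under upper-quartile scaling and 1 over nuclear protein-coding genes. PFDN2 was 373 and 339 TPM in 22RV1 and 574 and 423 TPM in PC3, where its log2 ratio was −0.44, and VBP1, the third prefoldin subunit, was at −0.38 in PC3. PFDN4 was 26.5 and 30.4 TPM in 22RV1 and 102 and 71 TPM in PC3, with log2 ratios of 0.20 and −0.51. Over nuclear protein-coding genes alone, the prefoldin median in PC3 was −0.23. The prefoldin median was thus below that of the chaperonin in PC3 and above it in 22RV1, and neither difference was tested. Medians centred on length and GC content were taken for the CCT subunits only, and not for prefoldin or the other lists. In 22RV1 that centring moved the CCT median from −0.31 to −0.07, so the order there holds for uncentred values only.

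The prefoldin-like complex, which joins URI1 and UXT with the RUVBL1 and RUVBL2 ATPases, had a median of −0.05 in 22RV1, above 0 in 3 of 4 other scalings, and of −0.10 in PC3, above 0 over nuclear protein-coding genes. RUVBL1 was 301 and 336 TPM in 22RV1 and 114.5 and 116 TPM in PC3. RUVBL2 was higher with shDDX52 in both lines, 578 and 635 TPM in 22RV1 and 264 and 290.0 TPM in PC3. RPAP3 was 14.9 and 14.0 TPM in 22RV1 and 12.8 and 6.71 TPM in PC3, with a PC3 log2 ratio of −0.84. URI1 was at −0.28 and −0.35, and UXT at −0.08 and −0.22. Among phosducin-like cofactors, which bind CCT and modulate folding, 3 of 5 were tested. TXNDC9 was at −0.14 in 22RV1 and −0.65 in PC3, and PDCL3 at 0.0064 and −0.52. In PC3, 3 of the 3 tested were lower, where 53.5% of all genes were, and under 2 of 4 other scalings 2 of the 3 were.

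Tubulin cofactors take tubulin over from CCT. Their median was 0.01 in 22RV1, with 3 of 6 lower against 58.8% of all genes. Under 3 of 4 other scalings, 1 of 6 was lower there. In PC3 the median was −0.31, with 4 of 6 lower against 53.5% of all genes. Of these, TBCE was at −0.67, TBCD at −0.47 and ARL2 at −0.37. The tubulins themselves had medians of −0.04, above 0 in 3 of 4 other scalings, and 0.02. The abundant TUBA1B was 2334 and 2054 TPM in 22RV1 and 2290.0 and 2332 TPM in PC3. TUBB3, the neuronal beta-tubulin, was 68.3 and 126 TPM in 22RV1 and 95.9 and 126 TPM in PC3, with log2 ratios of 0.87 and 0.40. TUBA1A was 17.6 and 23.4 TPM in 22RV1 and 7.9 and 23.2 TPM in PC3, and its PC3 log2 ratio of 1.45 was past 2-fold. TUBB6 was at −0.40 in both lines.

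Of the actins and actin-related proteins, 6 of 8 tested were lower in 22RV1, where 58.8% of all genes were, and 1 of 9 in PC3, where 53.5% were. The medians were −0.08, the same as over all genes, and 0.18, against −0.04 over all genes. ACTG1, cytoplasmic gamma-actin and among the most heavily transcribed clients of CCT, was 4295 and 3578 TPM in 22RV1 and 2478 and 3429 TPM in PC3. The single lower gene in PC3 was ACTR10, a dynactin subunit, at −0.69, and it was at −0.47 in 22RV1. ACTR2, of the Arp2/3 complex, was at −0.08 and 0.40. The propeller clients had medians of 0.10 and 0.19, with 5 of 14 tested lower in 22RV1 and 3 of 15 in PC3, against the same 58.8% and 53.5% of all genes. DCAF7 was at 0.25 and 0.73, BUB3 of the spindle checkpoint at −0.27 and 0.46, and PPP2R2A at −0.22 and −0.43.

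The remaining clients had a median of −0.0049 in 22RV1, above 0 in all 4 other scalings, and of −0.06 in PC3, above 0 in 2 of them. VHL was at 0.0026 and 0.57, and CCNE1 at −0.38 in both lines. STAT3 was 21.6 and 15.9 TPM in 22RV1, where its log2 ratio was −0.42, and was under 0.1 TPM in both PC3 libraries, so it was not tested there. The relatives of CCT in mitochondria, HSPD1 and its lid HSPE1, were lower in both lines. HSPD1 was 562 and 428 TPM in 22RV1 and 349.9 and 308 TPM in PC3, and HSPE1 was 801 and 611 TPM and 678 and 501 TPM. Their log2 ratios were −0.39 and −0.39 in 22RV1 and −0.18 and −0.43 in PC3. MKKS, a chaperonin-like protein of the cilium, was at −0.39 and −0.26. CCT6B, the testis form of the zeta subunit, was at most 1.43 TPM in any library. HSF1, which switches on chaperone genes under heat stress, was 70.4 and 75.7 TPM in 22RV1 and 108 and 100.2 TPM in PC3, where its log2 ratio of −0.10 was above 0 over nuclear protein-coding genes.

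**Figure D5:**
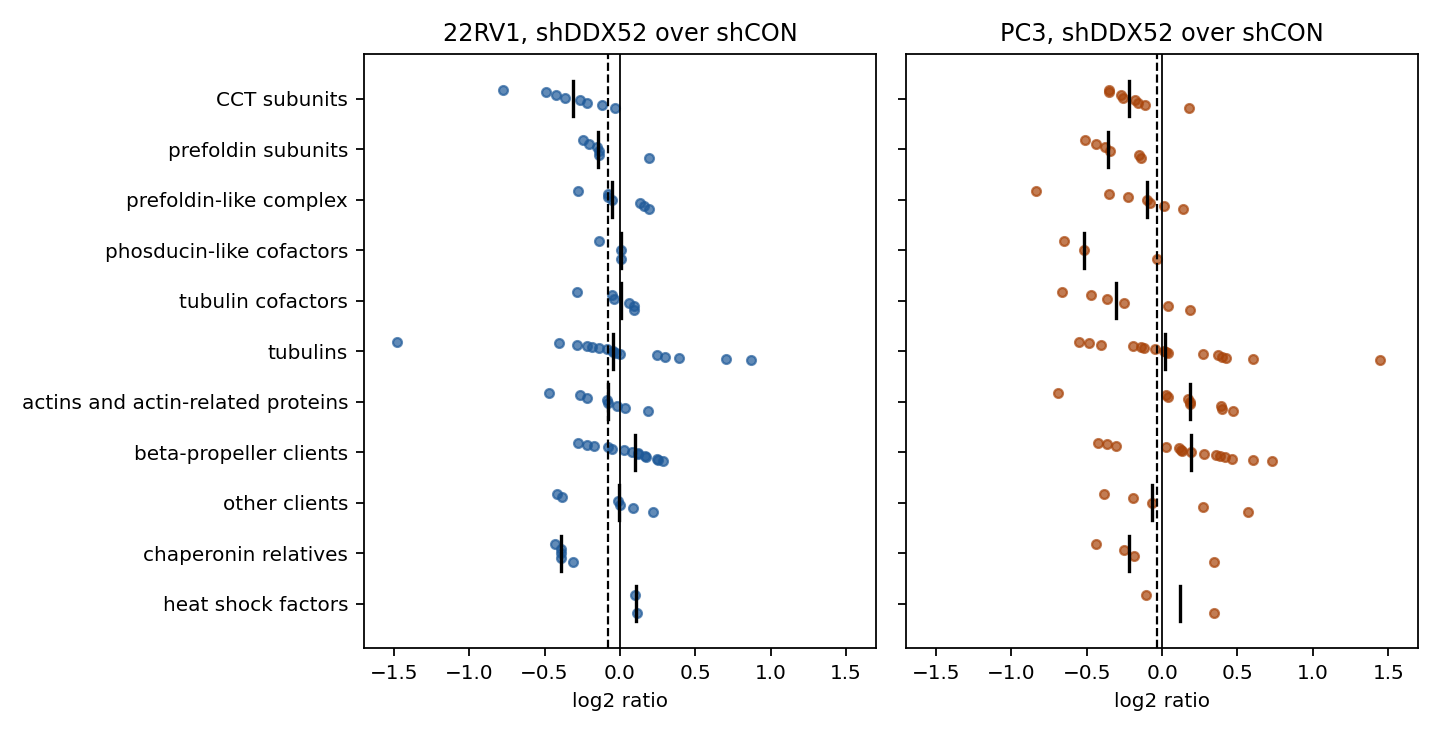
Log2 ratio of shDDX52 over shCON (horizontal axis) for each tested gene of the CCT subunits and of the 10 other lists in 22RV1 (left) and PC3 (right), with a black tick at each list's median, a solid line at 0 and a dashed line at the median of all genes tested. Points are spread vertically for visibility only. The subunits and their chaperonin relatives lie left of 0 in 22RV1, and the prefoldin subunits all lie left of 0 in PC3.

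Genes with profiles most like the family were sought over the 4 libraries. For each gene with at least 20 TPM in all of them, log2(TPM + 1) was centred on its mean, and the Euclidean distance to the mean centred profile of the 8 subunits was taken. The 5 nearest were NUDT2 (distance 0.042), RYK (0.044), PSMB2 (0.049), LAMTOR2 (0.053) and KPNB1 (0.055). KPNB1, importin beta-1, was 158 and 122 TPM in 22RV1 and 157 and 132 TPM in PC3. PSMB2, a proteasome subunit, was 63.4 and 51.4 TPM in 22RV1 and 63.0 and 54.8 TPM in PC3. The subunits themselves lay farther from their own mean, from 0.16 for CCT3 to 0.76 for TCP1. Of 3523 other genes, 73 were nearer to the mean than CCT3 and 2090 were nearer than TCP1. With 4 points per gene, this is a description of likeness and no more.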

How the data were processed

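The authors sequenced RNA from 4 groups of cells, 1 library each, mapped the reads with an online service and deposited values in TPM for 60671 Ensembl genes. Submitters' processing notes name CASAVA, HISAT2 and the build hg19. The quantification program, annotation and filters are not given in the sources used here. GENCODE 29, on GRCh38, lists 96.3% of the identifiers and gave gene types, transcript lengths and GC content, and no deposited value was placed by coordinate. Symbols came from a table of gene names.

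Log2 ratios used a pseudocount of 1, which understates changes of low genes, and were kept for genes that reached 1 TPM in either of the libraries compared. TPM keeps no depth and groups have 1 library, so values were described beside all genes, without tests. Differences were counted at 20% lower or 25% higher and at 2-fold. For centring, genes were binned by 10 classes of length and 10 of GC content. Named genes were the subunits, their pseudogenes and overlapping genes, DDX52, line markers, those members of lists of 7 or fewer genes that the text describes, the 3 genes of each list with the largest absolute log2 ratio among those with at least 5 TPM in both libraries of a line, and the 5 nearest profiles. Some line markers are not reported here. TUBA1B was named after its values were seen. The centring on length and GC content and the class of genes that reached 80 TPM were also chosen after seeing the data. Members and lists were chosen with earlier results of these data known. The ratio code was tested on simulated data. Python 3.11.15 was used with numpy 2.4.6, pandas 2.3.3 and, for plots, matplotlib 3.10.9.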

Additional observations from a re-analysis of the deposited data

Results flagged for a closer look

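The values below had opposite signs in the 2 cell lines. Each rests on 1 library per group, and no difference between lines was tested. Among the subunits, CCT7 alone had a log2 ratio below 0 in 22RV1, at −0.030, and above 0 in PC3, at 0.18, and its 22RV1 value was above 0 under 3 of 4 other scalings. Opposite signs also held for the medians of the phosducin-like cofactors (0.0057 and −0.52), the tubulin cofactors (0.010 and −0.31), the tubulins (−0.044 and 0.019) and the actins and actin-related proteins (−0.082 and 0.18), 22RV1 before PC3. Of the up to 3 genes named in each list for the largest absolute log2 ratio, those with opposite signs were PFDN4 (0.20 and −0.51), PDCL3 (0.0064 and −0.52), ARL2 (0.063 and −0.37), ACTG1 (−0.26 and 0.47), ACTR2 (−0.077 and 0.40), BUB3 (−0.27 and 0.46) and HSF1 (0.10 and −0.10). The tubulin median in 22RV1 and HSF1 in PC3 took the other sign under some of these scalings.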

How the results depend on the processing

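No paired analysis was possible because each group has 1 library, which leaves no residual degrees of freedom within a line. A model over both lines with the line as a block was not run. Under the alternatives, 177 values were recomputed for 33 results: 144 moved by less than 0.1 on the log2 scale, or by less than 1.5 times for counts and percentages, 33 moved by more, and 0 values at least 20% lower or 25% higher took the other sign. The tally is no measure of robustness, since most alternatives shift all abundant genes by nearly the same small amount. After rescaling, the median of the genes kept lay 0.0078 to 0.063 above that of all genes tested. Over nuclear protein-coding genes in PC3 it lay 0.12 above. Where rescaling dropped genes, these shifts include the change of gene set. Centring on all genes subtracts a median of −0.076 in 22RV1 and −0.036 in PC3. Most log2 values could thus hardly have moved by 0.1. Over nuclear protein-coding genes, the PC3 subunit median was −0.089 and the PC3 summed log2 ratio −0.018. After centring by length and GC content, an alternative chosen after seeing the data, the subunit median was −0.071 in 22RV1 and −0.11 in PC3. The number of subunits at least 20% lower, recomputed after seeing the data, was 1 in each line after that centring, against 4 in 22RV1 and 2 in PC3, and was 0 in PC3 over nuclear protein-coding genes, under upper-quartile scaling and after centring on all genes. Over all alternatives, the subunit median lay between −0.32 and −0.071 for 22RV1 and between −0.22 and −0.089 for PC3. Depth is unknown, so no lower limit of detection can be given. The share of all genes at least 20% lower or 25% higher was 35.3% in 22RV1 and 42.2% in PC3, 11.4% and 12.9% with no filter on low values, and 19.4% and 30.7% among genes that reached 80 TPM.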

Other observations

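The ratio of the pair of most abundant subunits, CCT3 over CCT7, was 0.905 in 22RV1 shCON and 0.850 in 22RV1 shDDX52, and 1.44 in PC3 shCON and 1.14 in PC3 shDDX52. The ratio of TCP1 to CCT5 was 1.16 and 0.818 in 22RV1 and 0.479 and 0.510 in PC3. TCP1 over CCT8 was 2.74 and 1.87 in 22RV1 and 0.909 and 0.858 in PC3. CCT2 over CCT5 was 0.619, 0.580, 0.574 and 0.605 in the same order. Ratios within a library do not depend on its scaling, but these were not centred on transcript length and GC content. No explanation was tested for any of them.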
